A study of Homo sapiens with 18 samples.

Results

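The genes described here encode the eukaryotic translation initiation factors (eIFs), the proteins that bring a ribosome to the start codon of an mRNA. They were taken by symbol, as every row whose name opens with EIF and a digit from 1 to 6. The eIF2 kinases (EIF2AK) and symbols that hold a hyphen were left out. This gave 51 of the 23399 rows of the expression table. Of these, 45 had a mean of at least 1 eRPKM (exonic reads scaled to transcript length in kilobases and to library size) and were tested along with 14993 genes in all. The other 6, EIF1AY, EIF3C, EIF3CL, EIF3IP1, EIF4E1B and EIF4EBP3, lay under that limit. EIF3C and its near-identical copy EIF3CL share reads, so their levels near 0 are uncertain.

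Initiation starts when eIF4F, made of the cap-binding protein eIF4E, the scaffold eIF4G and the helicase eIF4A, opens the 5′ end of an mRNA. The small ribosomal subunit then arrives with eIF1, eIF1A, eIF3, eIF5 and eIF2, which carries the initiator tRNA, and scans to the start codon. eIF2B recharges eIF2 with GTP after each round, and the 4E-binding proteins hold eIF4E away from eIF4G. Myc is a transcription factor known to raise genes of ribosome production and protein synthesis, several initiation factors among them.

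The cells were U2OS-MycER, an osteosarcoma line of human origin that expresses Myc fused to the estrogen receptor, which 4-hydroxytamoxifen (OHT) switches on. All 8 groups carried MycER and differed in 3 factors. The siRNA was siCtrl, against a luciferase, or siRAD21, against the cohesin subunit RAD21. The drug was 400 nM OHT or ethanol, given with the siRNA, and RNA was taken after 24 or 48 h. Of the 18 RNA-seq libraries, siCtrl 48 h and siCtrl OHT 48 h had 3 apiece and the remaining groups 2. The study's methods call its replicates biological, but the labels do not say whether they were separate cultures, so p-values measure the spread between these libraries, which may be technical.

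Depth ran from 9647501 to 12678599 reads per library. RAD21 was 3.78-fold lower in siRAD21 than in siCtrl cells at 24 h and 7.96-fold lower at 48 h (adjusted p = 4.38e-11 and 2.84e-14, limma). The row of MYC, whose reads from the endogenous gene and from MycER cannot be told apart, was 1.19-fold lower with siRAD21 at 24 h (adjusted p = 0.0146, limma) and differed by 0.12 on the log2 scale at 48 h (adjusted p = 0.109), a change between the times of 0.38 (adjusted p = 0.0106). It was lower with OHT in both siRNA states (log2 fold changes of -0.37 and -0.22 in siCtrl and -0.57 and -0.72 in siRAD21 cells at 24 and 48 h, all past the test). Of 8 osteoblast or mesenchymal markers 5 had a median of at least 1 eRPKM, with COL1A2, SP7 and TWIST1 at or near 0, and 3 of 9 markers of other cell types did (EPCAM, KRT14 and CDH1). Their summed level was 198 to 278 and 5.78 to 20 eRPKM per library. Single markers moved with the treatments: KRT14 was 12.1-fold lower with siRAD21 and 4.72-fold lower with OHT in siCtrl cells at 48 h, and EPCAM was 2.08-fold to 2.54-fold higher with OHT in each siRNA state and time. COL1A1 was 3.59-fold and RUNX2 2.51-fold lower with OHT in siRAD21 cells at 48 h. The part of cell state or cell makeup in the results on initiation factors was not tested. The 2 siRAD21 OHT libraries at 48 h differed by no more than sampling noise (chi-square per gene 0.995, against 1.072 to 4.237 in the other pairs). They were counted as 1 sample in every mean and SD, while the fits held both. Values with both averaged in the fit are given beside the main results they change.

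The initiation factors were abundant. Their mean level over all libraries had a median of 43.6 eRPKM, against 12.9 for all genes tested, and 39 of the 45 lay above 20 eRPKM. EIF4H, which assists the helicase, was the highest at 97.2 eRPKM and EIF4E3, a relative of eIF4E that binds the cap weakly, the lowest at 1.64 eRPKM. Because the authors removed duplicate reads, each start position and strand could hold 1 read, which set a ceiling of 157.7 to 207.3 eRPKM on any gene. The 45 genes stood at 0.893 to 52.8% of that ceiling (median 23.6%), and 15 of them above 30%. Fold changes of the most abundant members are therefore understated. In EIF4EBP1, at 41.5% of the ceiling, undoing the removal raised the log2 rise with OHT in siRAD21 cells at 48 h from 0.88 to 1.06.

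Promoters of 4 members, picked from those that the results below turn on, are shown. They differ in the E-box CACGTG, the sequence that Myc binds with its partner Max. The 250 bases before the start of each gene come from RefSeq on GRCh38.p14, on the strand of the gene, and run from 5′ to 3′ with the motif in capitals. EIF4E, the cap-binding protein (chr4:98929134-98929383, minus strand), holds it at positions -225 and -72 from the start. EIF2B3, the gamma subunit of eIF2B (chr1:44986596-44986845, minus strand), holds 1 at -179. EIF4A3, the helicase of the exon junction complex (chr17:80147129-80147378, minus strand), holds 1 at -121. EIF3J, a loosely bound subunit of eIF3 (chr15:44536897-44537146, plus strand), holds none.
EIF4E: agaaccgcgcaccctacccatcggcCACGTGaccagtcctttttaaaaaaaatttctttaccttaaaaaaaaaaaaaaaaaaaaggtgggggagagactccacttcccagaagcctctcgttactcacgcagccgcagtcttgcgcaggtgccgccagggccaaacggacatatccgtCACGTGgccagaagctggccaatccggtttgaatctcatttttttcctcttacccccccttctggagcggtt
EIF2B3: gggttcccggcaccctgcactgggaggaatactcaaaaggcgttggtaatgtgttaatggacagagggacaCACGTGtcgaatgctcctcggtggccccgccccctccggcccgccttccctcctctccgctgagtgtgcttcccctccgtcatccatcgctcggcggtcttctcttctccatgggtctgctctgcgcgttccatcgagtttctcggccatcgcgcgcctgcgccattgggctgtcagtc
EIF4A3: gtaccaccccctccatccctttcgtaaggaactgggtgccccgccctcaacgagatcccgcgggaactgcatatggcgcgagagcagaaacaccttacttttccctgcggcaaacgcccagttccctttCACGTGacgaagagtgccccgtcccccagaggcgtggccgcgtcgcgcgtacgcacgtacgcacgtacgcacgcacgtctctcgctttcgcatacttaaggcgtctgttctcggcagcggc
EIF3J: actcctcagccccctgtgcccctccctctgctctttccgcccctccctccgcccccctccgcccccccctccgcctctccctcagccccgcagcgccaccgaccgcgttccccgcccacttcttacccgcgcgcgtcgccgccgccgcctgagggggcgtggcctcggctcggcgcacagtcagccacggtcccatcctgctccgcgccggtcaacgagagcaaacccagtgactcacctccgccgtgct

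The motif reads the same on both strands and was searched from 250 bases before to 50 after the start. It was found in 10 of the 38 tested members that have such a window (26.3%), in 10.0% of the windows of genes tested and in 7.4% of all 27305 windows. The 10 are EIF1B, EIF2B3, EIF3F, EIF3K, EIF4A3, EIF4B, EIF4E, EIF4G1, EIF4H and EIF5A2. By the limits given below, 7 members were called higher with OHT in siRAD21 cells at 48 h. Of these EIF2B3, EIF4A3 and EIF4E hold the motif, and EIF1AX, EIF2B1 and EIF3J do not. EIF4EBP1 was among the 7 tested members without a window and was not searched. Members with the motif did not have the larger median. With OHT in siRAD21 cells at 48 h, the median log2 fold change was 0.17 for the 10 members with it and 0.32 for the 28 without. In siCtrl cells at 48 h these medians were 0.11 and 0.18. The 10 ranged from -0.19 (EIF5A2) to 1.05 (EIF2B3).

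Most initiation factors were a little lower with RAD21 silencing and a little higher with OHT, and a few changed more. Summed over the 45 tested genes, siCtrl libraries at 48 h held 2010, 2072 and 1984 eRPKM and siCtrl OHT libraries 2187, 2322 and 2289. The siRAD21 libraries at 48 h held 1785 and 1850 and the siRAD21 OHT libraries 2230 and 2202. At this time the groups did not overlap, except that siRAD21 OHT libraries lay within the range of siCtrl OHT libraries. The 24 h siCtrl libraries held 2082 and 1921, siCtrl OHT 2105 and 2163, siRAD21 1861 and 1835, and siRAD21 OHT 2024 and 2142. There the siRAD21 libraries were the lowest, and the siRAD21 OHT libraries overlapped both siCtrl and siCtrl OHT. The median of all genes tested stayed between 11.9 and 13.4 eRPKM in every library. Within every group but siCtrl at 48 h, sums fell as depth rose. At 48 h siRAD21 libraries had 10912005 and 10202656 reads and siRAD21 OHT libraries 9653960 and 9818735. At closer depths there, siRAD21 replicate 2 (10202656 reads) held 1850 eRPKM, siCtrl replicate 2 (10010519) 2072 and siCtrl OHT replicate 1 (10243692) 2187. The part of depth in these sums was not tested. In bulk RNA, fewer cells of a kind and less RNA per cell cannot be told apart.

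**Figure D1:**
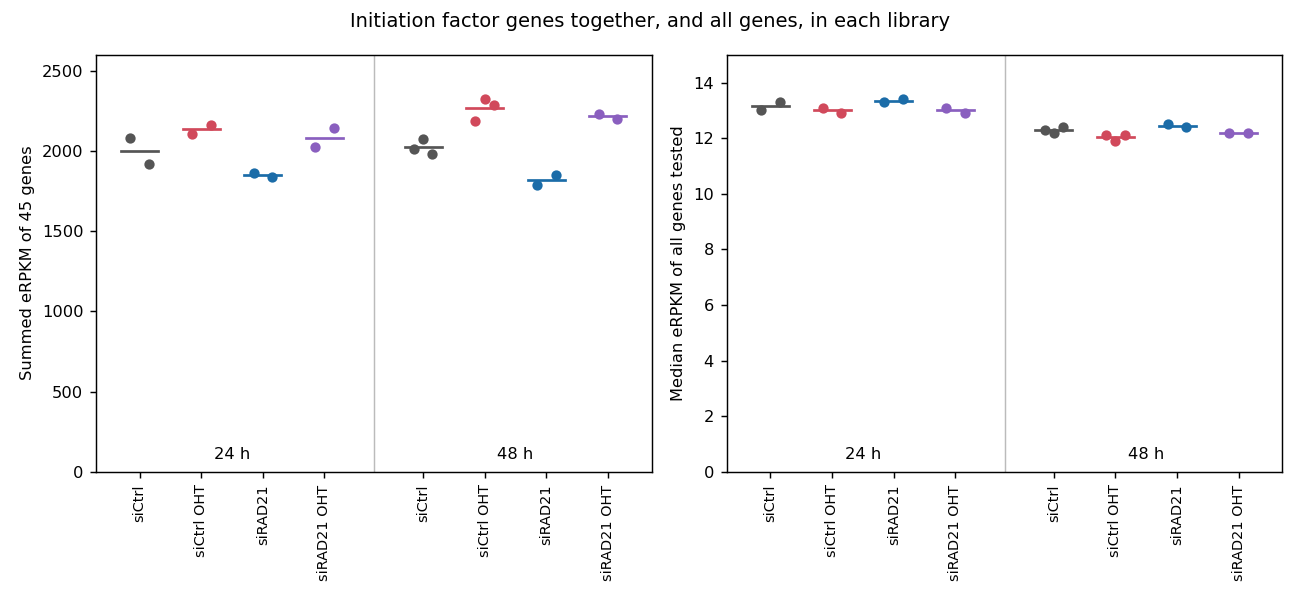
Summed eRPKM of the 45 tested initiation factor genes (left) and the median eRPKM of all genes tested (right) in each library, with points for libraries and lines for group means. At 48 h the siRAD21 libraries lie at 1785 and 1850 and the siRAD21 OHT libraries at 2230 and 2202, while the median of all genes stays between 11.9 and 12.5.

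Each comparison was read in 2 ways. A gene passed the test at an adjusted p below 0.05 (limma on log2(eRPKM + 0.5), Benjamini-Hochberg adjustment), and was called when its log2 fold change was also past 0.5 in either direction. With siRAD21 against siCtrl at 24 h, 11 members passed lower and 3 higher, against 11.8% and 14.0% of all genes (25.8% in either direction). Of these, 1 was called lower and 2 higher (2.60% and 5.83% of all genes, 8.43% in either direction). At 48 h, 23 passed lower and 3 higher (30.5% and 27.2% of all genes, 57.7% in either direction), with 5 called lower and 2 higher (11.2% and 12.6%, 23.7% in either direction). The median log2 fold change of the members was -0.11 at 24 h and -0.14 at 48 h, against 0.002 and -0.014 for all genes. At 48 h 40 of the 45 lay below 0, but only 28 did after quantile normalization, which moved the median to -0.06. At 24 h the median depended on the siCtrl libraries, at -0.05 without replicate 1 and -0.17 without replicate 2.

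With OHT most members were higher. In siCtrl cells 10 members passed higher and 2 lower at 24 h (12.5% and 14.0% of all genes, 26.5% in either direction). By limma 0 were called, while 3.68% of all genes were called higher and 5.10% lower (8.78% in either direction). By voom on recovered reads 1 member was called, and 16 had an unadjusted p below 0.05 by limma. Without siCtrl 24 h replicate 2 only 4 members passed higher, and the median went from 0.08 to 0.01. At 48 h 24 passed higher and 2 lower (26.1% and 27.2% of all genes, 53.3% in either direction), with 2 called in each direction (7.78% and 10.1%, 17.9% in either direction). In siRAD21 cells 21 passed higher and 2 lower at 24 h (16.9% and 18.2% of all genes, 35.2% in either direction), with 1 called each way (4.29% higher and 7.62% lower, 11.9% in either direction). At 48 h 34 passed higher and 2 lower (30.5% and 29.9% of all genes, 60.4% in either direction), with 7 called higher and 2 lower (12.4% and 16.2%, 28.6% in either direction). The 7 of 45 called higher were thus close to the share of all genes. This comparison shares its siRAD21 libraries with that of siRAD21 against siCtrl. Medians were 0.08 and 0.14 in siCtrl and 0.15 and 0.30 in siRAD21 cells at 24 and 48 h, and under quantile normalization the 48 h medians were 0.07 and 0.14. With the siRAD21 OHT 48 h libraries averaged, 25 members passed higher at 48 h in siRAD21 cells in place of 34, and 19 in place of 21 at 24 h. In siCtrl cells 9 and 23 then passed higher at 24 and 48 h, and 10 passed lower with siRAD21 at 24 h.

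**Figure D2:**
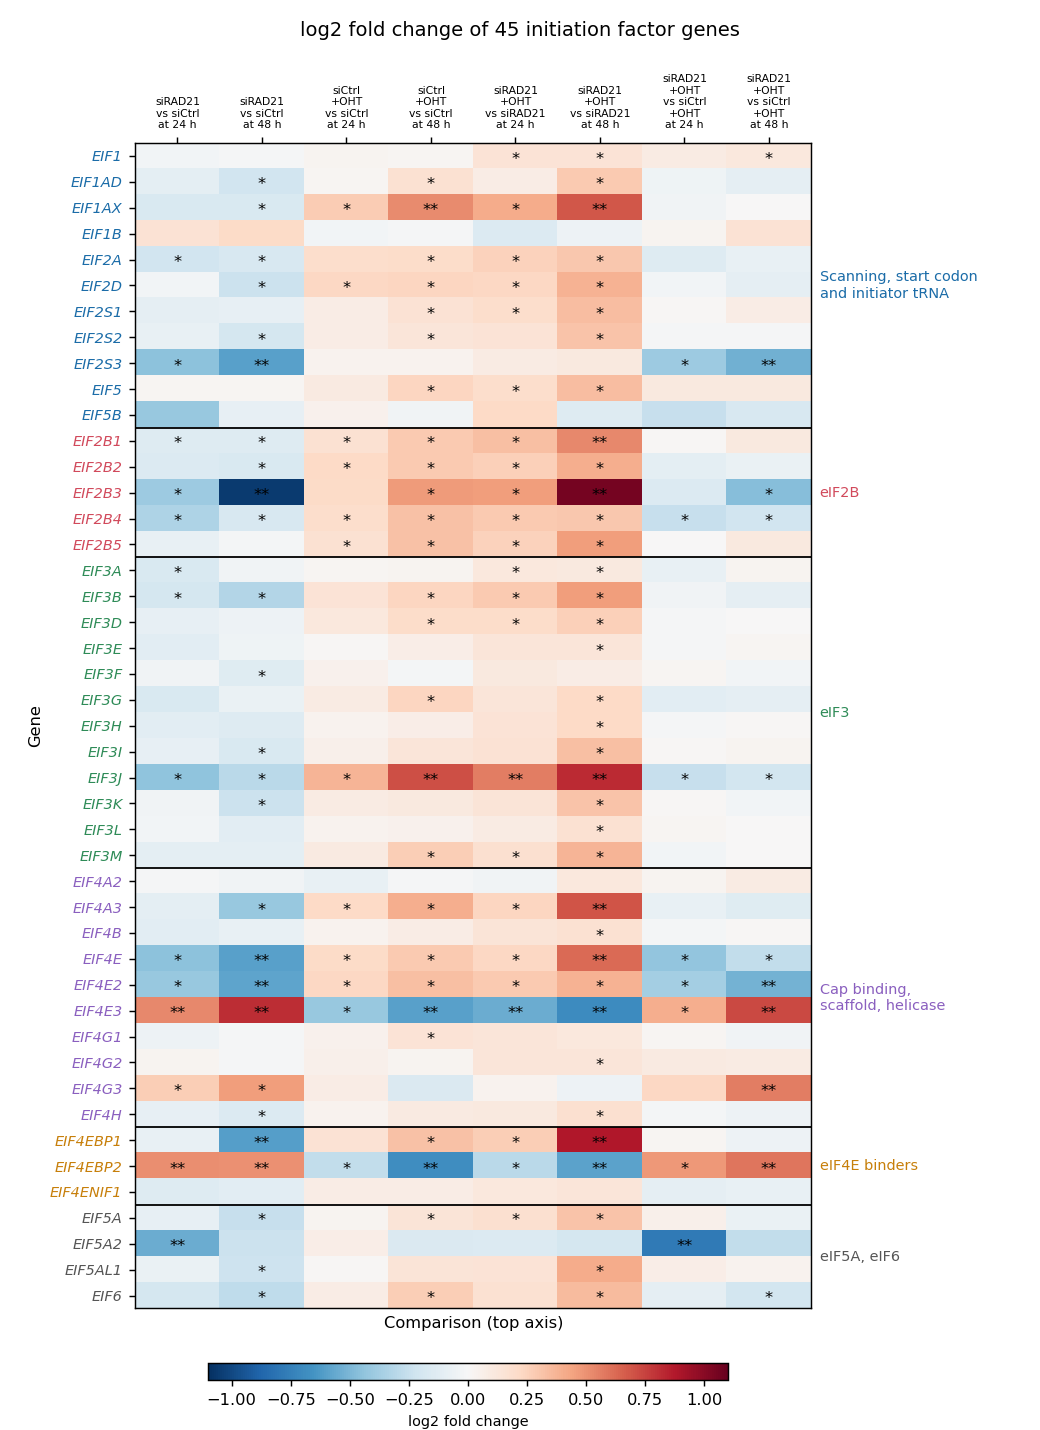
log2 fold change (colour) of the 45 tested genes in rows, grouped by role, in 8 comparisons between groups in columns. One star marks an adjusted p below 0.05 and 2 stars a called gene, and the columns of OHT in siRAD21 cells hold 21 rises past the test at 24 h and 34 at 48 h.

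At the cap, EIF4E followed both treatments. After 24 h the libraries held 22.4 and 23.9 eRPKM in siCtrl, 26.7 and 27.2 in siCtrl OHT, 16.3 and 17.4 in siRAD21 and 19.5 and 20.2 in siRAD21 OHT. At 48 h siCtrl libraries held 29.0, 30.5 and 26.6, siCtrl OHT 33.7, 35 and 36.8, siRAD21 18.2 and 19.3, and siRAD21 OHT 29.3 and 29.0. No group overlapped another at 24 h, and at 48 h the siRAD21 OHT libraries lay within the siCtrl range. EIF4E was 1.52-fold lower with siRAD21 at 48 h (log2 fold change -0.60, SE 0.058, adjusted p = 9.18e-07). It was 1.54-fold higher with OHT in siRAD21 cells (0.62, SE 0.064, adjusted p = 1.70e-06) and 1.22-fold higher in siCtrl cells (0.29, SE 0.052, adjusted p = 0.000323). The effect of OHT was larger in siRAD21 cells by 0.33 on the log2 scale (interaction, adjusted p = 0.0135). With the siRAD21 OHT 48 h libraries averaged that adjusted p was 0.0501. Under OHT, siRAD21 cells still held 1.20-fold less EIF4E than siCtrl cells (adjusted p = 0.00182).

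EIF4E2, a cap-binding relative of eIF4E that takes part in repressing translation, fell with siRAD21 whether or not OHT was present. The siCtrl libraries at 48 h held 29.4, 29.8 and 28.9 eRPKM, siRAD21 19.7 and 19.3, siCtrl OHT 34.5, 37.9 and 38.4, and siRAD21 OHT 25.5 and 25.6. All 4 groups were apart. The fall was 1.49-fold without OHT (adjusted p = 7.18e-08) and 1.44-fold with it (adjusted p = 3.61e-07), and the interaction was 0.06 (SE 0.061, adjusted p = 0.562). The fall with OHT was short of a call without siCtrl OHT 48 h replicate 3 (-0.49) and under quantile normalization (-0.46). OHT raised EIF4E2 by 0.33 in siCtrl and 0.38 in siRAD21 cells on the log2 scale (adjusted p = 8.35e-06 and 9.96e-06).

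EIF4E3 went the opposite way at low level. Levels at 48 h were 1.57, 1.71 and 1.82 eRPKM in siCtrl, 0.914, 0.832 and 1.1 in siCtrl OHT, 3.38 and 3.34 in siRAD21 and 2.08 and 1.73 in siRAD21 OHT. The siRAD21 libraries were highest and the siCtrl OHT libraries lowest, and siRAD21 OHT overlapped siCtrl. At 24 h siCtrl libraries held 1.33 and 1.28, siCtrl OHT 0.942 and 0.764, siRAD21 2.03 and 2.20, and siRAD21 OHT 1.37 and 1.21. These are between 54 and 248 reads per library, and the pseudocount makes fold changes at this level smaller than those of the eRPKM values. EIF4E3 was called higher with siRAD21 at 24 and 48 h (log2 fold change 0.53 and 0.81, adjusted p = 0.00737 and 4.44e-05). It was called lower with OHT in siCtrl cells at 48 h (-0.60, adjusted p = 0.000256, and -0.47 and short of a call with a pseudocount of 1) and in siRAD21 cells at 24 and 48 h (-0.55 and -0.69, adjusted p = 0.00466 and 0.000405). Under quantile normalization 3 of these changes fell short of the limit of 0.5, at 0.37 with siRAD21 at 24 h and -0.39 and -0.46 with OHT in siRAD21 cells. With a pseudocount of 1 the 24 h values were 0.43 and -0.45, also short of it. The calls at 24 h also rested on siRAD21 replicate 2 and siRAD21 OHT replicate 2, without which the values were 0.49, no longer past the test, and -0.48, past it but short of a call. It shares 299 of its 10808 exon bases with GPR27 on the opposite strand, and the library kit keeps no strand.

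Of the helicases, EIF4A3 moved and EIF4A2, which unwinds mRNA in eIF4F, hardly did. The siCtrl libraries at 48 h held 46.3, 50.6 and 45.4 eRPKM of EIF4A3, siCtrl OHT 62.5, 61.9 and 64.1, siRAD21 34.1 and 36.3, and siRAD21 OHT 57.5 and 56.9. All 4 groups were apart. At 24 h the siRAD21 libraries, at 46.6 and 44.1, lay at or below the lower of the siCtrl libraries, at 51.1 and 46.6, which before rounding was above both. EIF4A3 passed lower with siRAD21 at 48 h (-0.42, adjusted p = 2.39e-05), where its effect was lower by 0.32 than at 24 h (adjusted p = 0.0169). With OHT it was 1.62-fold higher in siRAD21 cells at 48 h (0.69, adjusted p = 5.46e-07) and 1.32-fold higher in siCtrl cells (0.40, adjusted p = 1.58e-05), a difference of 0.29 (interaction, adjusted p = 0.0255, and 0.0808 with the siRAD21 OHT libraries averaged). EIF4A2 passed in none of the 8 comparisons between groups, with log2 fold changes between -0.08 and 0.12. Under quantile normalization it passed lower with OHT in siCtrl cells at 24 and 48 h (-0.13 and -0.09, adjusted p = 0.0110 and 0.0130, limma). It then also passed lower with OHT in siRAD21 cells at 24 h (-0.15, adjusted p = 0.00363). With siRAD21 under OHT at 48 h it passed higher in that setting (0.12, adjusted p = 0.00787). EIF4A1 was not analysed here.

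The scaffolds differed. EIF4G1, the main scaffold of eIF4F, held 79.7, 72.7 and 73.9 eRPKM in siCtrl and 87.5, 82.8 and 80.9 in siCtrl OHT libraries at 48 h, a rise of 1.11-fold (adjusted p = 0.00895). Under quantile normalization EIF4G1 rose there by 0.06 on the log2 scale and did not pass (adjusted p = 0.269, limma). In siRAD21 cells it held 73.7 and 75.7 without and 82.1 and 80.5 with OHT (log2 fold change 0.12, adjusted p = 0.0610), a difference that was -0.08 after quantile normalization. At 24 h EIF4G1 stood at 76.4 and 70.7 eRPKM in siCtrl, 74.8 and 77.9 in siCtrl OHT, 71.1 and 69.9 in siRAD21 and 76.2 and 78.4 in siRAD21 OHT libraries. Its log2 fold changes with OHT there were 0.05 in siCtrl and 0.13 in siRAD21 cells (adjusted p = 0.511 and 0.0670). EIF4G3, a second scaffold, rose with siRAD21 at 48 h. After 48 h the libraries held 12.4, 11.3 and 12.4 eRPKM in siCtrl, 17.5 and 16.0 in siRAD21, 10.8, 10.2 and 11.2 in siCtrl OHT and 15.9 and 16.2 in siRAD21 OHT. The siRAD21 libraries were above the siCtrl libraries both without and with OHT, and they were so at 24 h too. Under OHT at 24 h the adjusted p was 0.0665 (limma), 0.0396 under median centring and 0.0497 under quantile normalization. At 48 h the rise was 1.38-fold without OHT (adjusted p = 0.000116) and 1.47-fold with it, where it was called (adjusted p = 3.19e-05). With OHT its log2 fold change was -0.16 in siCtrl and -0.06 in siRAD21 cells (adjusted p = 0.0598 and 0.549), the first with an adjusted p of 0.0474 under the replicate block. EIF4G2, which drives cap-independent initiation, and the helicase cofactors EIF4B and EIF4H stayed within 0.18 of 0 on the log2 scale in every comparison between groups. They stood at 51.2, 50.9 and 52.8% of the ceiling. Each passed higher with OHT in siRAD21 cells at 48 h (adjusted p = 0.0334, 0.0175 and 0.0147, limma). None did with the siRAD21 OHT libraries averaged (0.105, 0.0665 and 0.0586). EIF4H passed lower with siRAD21 at 48 h (adjusted p = 0.0311, and 0.0792 under quantile normalization).

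**Figure D3:**
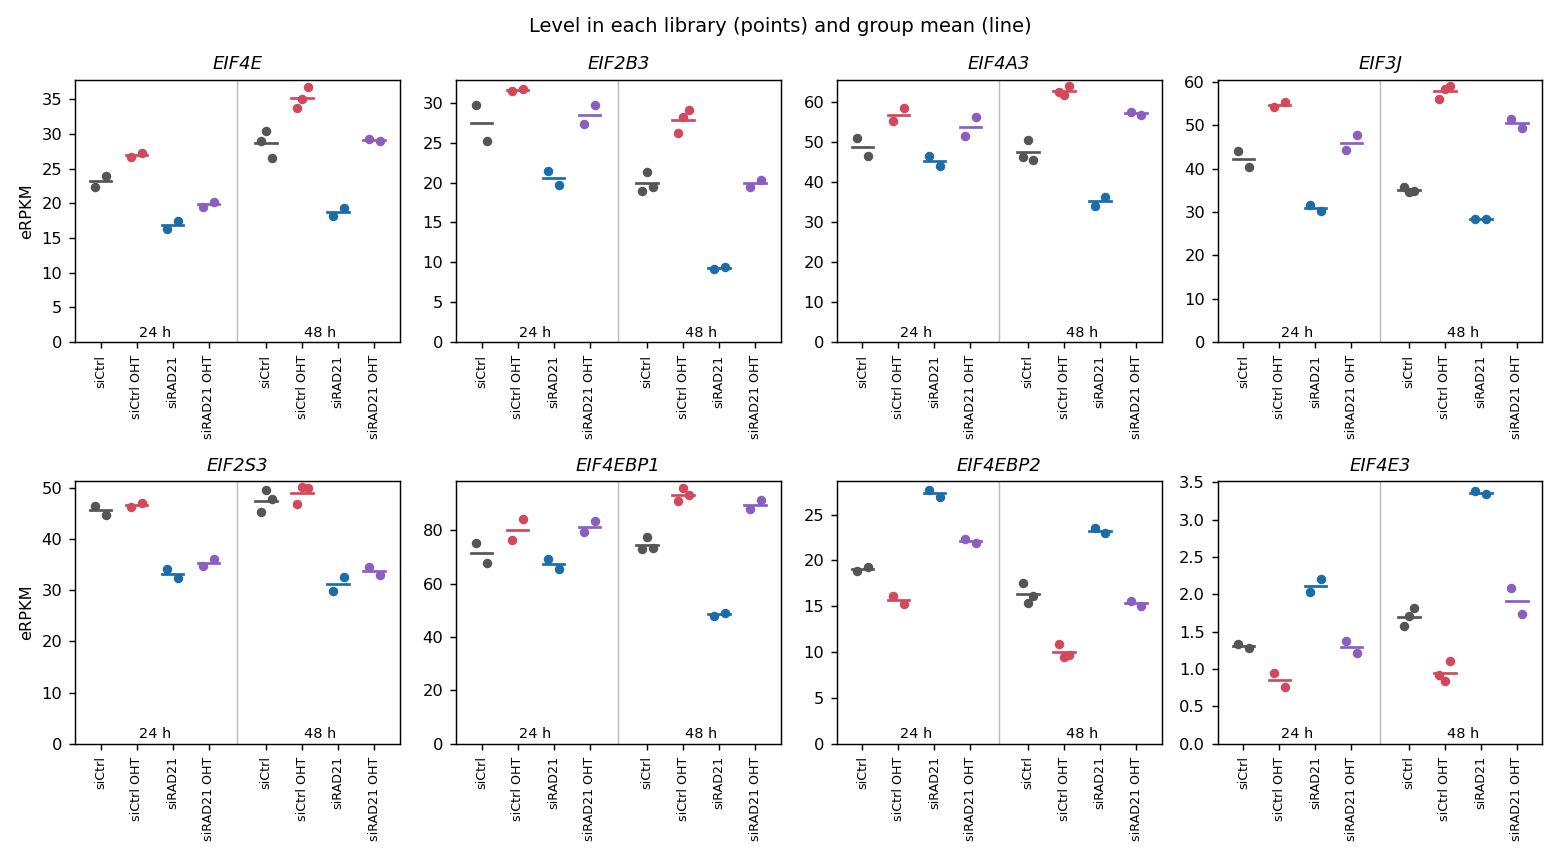
eRPKM of 8 genes in each library, with points for libraries and lines for group means, 24 h left and 48 h right in every panel. EIF4E, EIF2B3, EIF4A3 and EIF4EBP1 are lowest in siRAD21 cells at 48 h, EIF2S3 is low in siRAD21 cells with and without OHT, and EIF4EBP2 and EIF4E3 are highest in siRAD21 cells without OHT at each time.

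The genes of 2 proteins that hold eIF4E back from eIF4G, EIF4EBP1 and EIF4EBP2, moved in opposite directions. For EIF4EBP1, siCtrl libraries at 48 h held 72.8, 77.5 and 73.2 eRPKM, siCtrl OHT 90.8, 95.9 and 93.3, siRAD21 48.0 and 49.1, and siRAD21 OHT 87.8 and 91.4. The siRAD21 libraries lay far below all others, and the siRAD21 OHT libraries overlapped siCtrl OHT. It was 1.53-fold lower with siRAD21 at 48 h (-0.61, SE 0.054, adjusted p = 3.60e-07) and 1.84-fold higher with OHT in siRAD21 cells (0.88, SE 0.059, adjusted p = 3.28e-08), against 1.25-fold in siCtrl cells (0.32, adjusted p = 6.58e-05). The interaction was 0.55 (SE 0.076, adjusted p = 0.000310, and 0.00228 with the siRAD21 OHT libraries averaged). Under quantile normalization the fall was -0.49 and the interaction 0.45, both past the test but short of a call. Under OHT, siRAD21 and siCtrl cells differed by -0.06 (SE 0.054, adjusted p = 0.408).

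The fall of EIF4EBP1 was seen at 48 h and not at 24 h. At 24 h siCtrl libraries held 75.2 and 67.9 eRPKM, siRAD21 69.3 and 65.6, siCtrl OHT 76.4 and 84.1, and siRAD21 OHT 79.2 and 83.6. The siRAD21 libraries overlapped siCtrl, and the log2 fold change was -0.08 (SE 0.059, adjusted p = 0.333). The effects at 48 and 24 h differed by -0.53 (SE 0.080, adjusted p = 0.000383). This was -0.46 without siCtrl 24 h replicate 2, -0.50 without siCtrl 48 h replicate 2, -0.49 without siRAD21 24 h replicate 1 and -0.47 under quantile normalization, each short of a call. Only EIF2B3, EIF4A3 and EIF4EBP1 passed in this difference between times, all lower at 48 h (13.5% of all genes lower, 8.12% higher and 21.6% in either direction). Of these 3, EIF2B3 and EIF4EBP1 were called (6.86% of all genes lower, 3.85% higher and 10.7% in either direction). With OHT at 24 h EIF4EBP1 had log2 fold changes of 0.16 in siCtrl and 0.27 in siRAD21 cells (adjusted p = 0.0564 and 0.003).

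EIF4EBP2 was higher with siRAD21 and lower with OHT at each time. The 24 h siCtrl libraries held 18.8 and 19.3 eRPKM, siCtrl OHT 16.1 and 15.2, siRAD21 27.7 and 26.9, and siRAD21 OHT 22.3 and 21.9. Levels at 48 h were 17.5, 15.3 and 16.1 in siCtrl, 10.9, 9.47 and 9.66 in siCtrl OHT, 23.5 and 23.0 in siRAD21 and 15.6 and 15 in siRAD21 OHT. No group overlapped another at 24 h, and at 48 h only siRAD21 OHT and siCtrl did. The rise with siRAD21 was 1.42-fold at 24 h (log2 fold change 0.51, adjusted p = 0.000101) and at 48 h (0.50, adjusted p = 1.10e-05), both at the limit of 0.5. It was 0.48 and 0.49 at 24 and 48 h under median centring, 0.50 and 0.49 with a pseudocount of 1, 0.49 at 48 h with the replicate block, 0.49 at 24 h without siCtrl replicate 1 or siRAD21 replicate 1, and 0.46 to 0.50 at 48 h without siCtrl replicate 2 or 3 or siRAD21 replicate 1, each short of a call. Under OHT it was 1.4-fold and 1.51-fold (adjusted p = 0.000197 and 4.03e-06). OHT lowered it 1.60-fold in siCtrl and 1.5-fold in siRAD21 cells at 48 h (adjusted p = 2.85e-07 and 6.02e-06), with an interaction of 0.09 (SE 0.089, adjusted p = 0.537). In siCtrl cells the effect of OHT was lower by 0.40 at 48 h than at 24 h (adjusted p = 0.0222). EIF3J, described further on, was the other member that passed in that difference, with 2.21% of all genes higher and 1.95% lower (4.17% in either direction). By limma 0 members were called in it, against 0.714% of all genes higher and 1.06% lower (1.77% in either direction), and 10 had an unadjusted p below 0.05. EIF4ENIF1, which carries eIF4E to the nucleus, passed in no comparison of the main fit, with log2 fold changes from -0.14 to 0.13. Under quantile normalization it passed lower with siRAD21 at 24 and 48 h (-0.19 and -0.16, adjusted p = 0.0236 and 0.0178, limma). It then also passed higher with OHT in siRAD21 cells (0.19 at each time, adjusted p = 0.0238 and 0.0134). Median centring gave an adjusted p of 0.0412 with siRAD21 at 48 h. With OHT in siRAD21 cells it gave 0.0487 and 0.0305 at 24 and 48 h.

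The 5 subunits of eIF2B, the exchange factor of eIF2, rose together with OHT. All 5 passed higher in siCtrl cells at 48 h (26.1% of all genes) and in siRAD21 cells at 24 and 48 h (16.9% and 30.5%). Of the 5, 4 did in siCtrl cells at 24 h (12.5% of all genes). These counts of subunits were the same under quantile normalization. In siCtrl cells at 24 h 3 of 5 passed under median centring and with the siRAD21 OHT 48 h libraries averaged, where EIF2B5 had an adjusted p of 0.0580 in each. Their medians at 48 h were 0.32 in siCtrl and 0.46 in siRAD21 cells, or 0.22 and 0.30 under quantile normalization. With siRAD21 at 48 h 4 of 5 passed lower (30.5% of all genes), and 3 of 5 under quantile normalization. The median was -0.17, and EIF2B3 stood apart.

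EIF2B3 encodes a subunit of the catalytic part of eIF2B. At 48 h siCtrl libraries held 18.9, 21.3 and 19.5 eRPKM, siRAD21 9.22 and 9.46, siCtrl OHT 26.2, 28.2 and 29.1, and siRAD21 OHT 19.5 and 20.3. The siRAD21 level was under that of every other group, and siRAD21 OHT libraries lay within the siCtrl range. The 24 h siCtrl libraries held 29.7 and 25.2, siRAD21 21.5 and 19.7, siCtrl OHT 31.5 and 31.8, and siRAD21 OHT 27.4 and 29.7. There siRAD21 was again lowest, and siRAD21 OHT overlapped siCtrl. At 48 h EIF2B3 was 2.07-fold lower with siRAD21 (log2 fold change -1.05, SE 0.072, adjusted p = 3.18e-08), the largest fall of any member, after 1.32-fold at 24 h (adjusted p = 0.00188). The effects differed by -0.65 (SE 0.107, adjusted p = 0.000755). OHT raised it 2.07-fold in siRAD21 cells at 48 h (1.05, SE 0.079, adjusted p = 9.47e-08) and 1.39-fold in siCtrl cells (0.47, adjusted p = 2.97e-05). That is a difference of 0.58 (interaction, SE 0.102, adjusted p = 0.00185, and 0.00990 with the siRAD21 OHT libraries averaged). Under OHT it remained 1.39-fold lower in siRAD21 cells (adjusted p = 0.000108).

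EIF2B1, the alpha subunit of its regulatory part, was the other subunit called. After 48 h the libraries held 37.2, 38.4 and 39.1 eRPKM in siCtrl, 45.3, 48.9 and 46.1 in siCtrl OHT, 34.0 and 35.4 in siRAD21 and 50.7 and 50.2 in siRAD21 OHT. All 4 groups were apart, with siRAD21 OHT the highest. It was 1.45-fold higher with OHT in siRAD21 cells (0.53, adjusted p = 4.92e-07) and 1.22-fold in siCtrl cells (0.29, adjusted p = 3.24e-05). The interaction was 0.25 (adjusted p = 0.0139, and 0.0526 with the siRAD21 OHT libraries averaged). Under quantile normalization the rise in siRAD21 cells was 0.36, short of a call. EIF2B1 shares 538 of its 3627 exon bases with DDX55 on the opposite strand. EIF2B2, EIF2B4 and EIF2B5 rose with OHT by 0.29 to 0.32 in siCtrl and by 0.30 to 0.46 in siRAD21 cells at 48 h on the log2 scale.

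**Figure D4:**
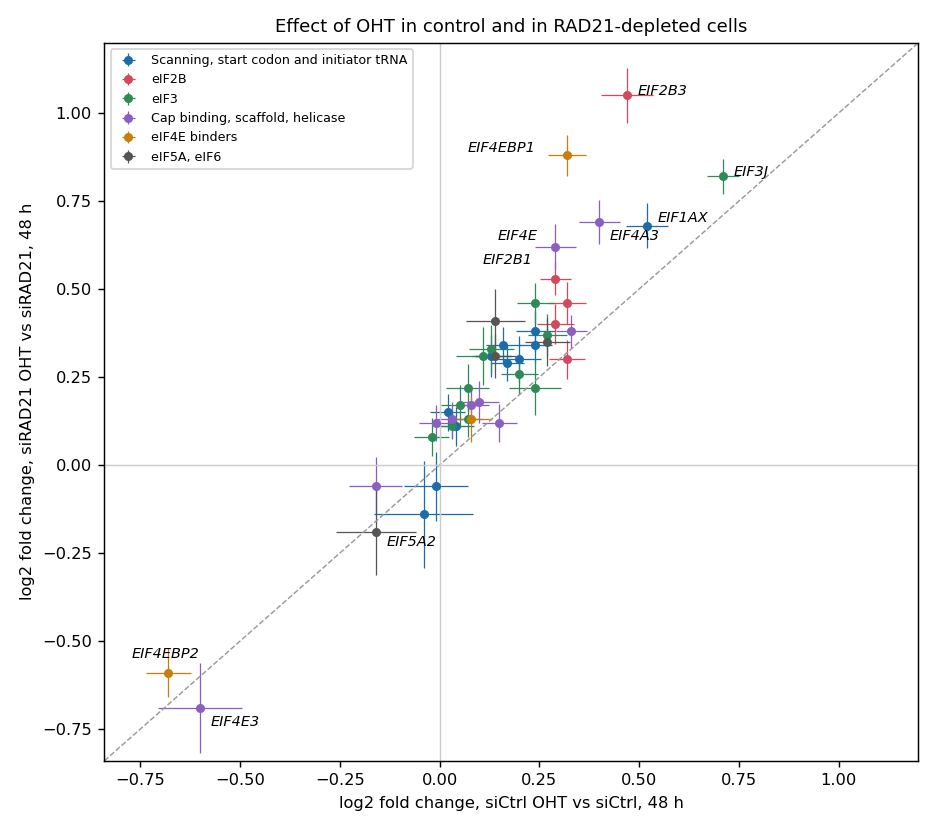
log2 fold change with OHT at 48 h in siCtrl cells (x axis) and in siRAD21 cells (y axis) for the 45 tested genes, with bars of 1 SE, colours for roles and a dashed line of equal change. Of the 45 points 38 lie above the line, with EIF2B3 at 0.47 and 1.05 and EIF4EBP1 at 0.32 and 0.88.

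The 2 effects of OHT at 48 h come from separate libraries. Across the 45 genes they had a Pearson r of 0.926, as a description over genes that share libraries and depth. Of the members, 23 passed higher in both, of 24 in siCtrl and 34 in siRAD21 cells, and EIF4E3 and EIF4EBP2 were the 2 that passed lower in each. The log2 fold change was higher in siRAD21 cells for 38 of the 45, among them EIF4EBP2, which fell in each. The median interaction was 0.11, against 0.016 for all genes (0.05 under quantile normalization). The interaction itself passed higher for 5 members, EIF2B1, EIF2B3, EIF4A3, EIF4E and EIF4EBP1, and lower for 0 (10.0% and 7.25% of all genes, 17.3% in either direction). EIF2B3 and EIF4EBP1 were called (3.33% of all genes higher, 3.97% lower and 7.30% in either direction). With the siRAD21 OHT 48 h libraries averaged the 2 called genes alone passed. At 24 h no member and no gene passed (0% of all genes by limma), while 3 members and 906 genes had an unadjusted p below 0.05.

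Among the factors of scanning, start codon choice and initiator tRNA, EIF1AX rose most with OHT and EIF2S3 fell most with siRAD21. EIF1AX encodes eIF1A, which helps the small subunit to scan. At 48 h siCtrl libraries held 23.1, 25.5 and 24.4 eRPKM, siCtrl OHT 32.6, 36.7 and 36.0, siRAD21 20.4 and 22.9, and siRAD21 OHT 35.1 and 35. The OHT libraries were above all others in each siRNA state, and siRAD21 lay below siCtrl. OHT raised it 1.43-fold in siCtrl (0.52, adjusted p = 1.66e-06) and 1.61-fold in siRAD21 cells (0.68, adjusted p = 6.94e-07), and the interaction was 0.16 (SE 0.082, adjusted p = 0.191). The rise in siCtrl cells was under the limit for a call with quantile normalization (0.43), without siCtrl 48 h replicate 1 (0.48) and without siCtrl OHT 48 h replicate 2 (0.49).

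EIF2S3, the gamma subunit of eIF2 that binds GTP and the initiator tRNA, depended on the siRNA. The 24 h siCtrl libraries held 46.5 and 44.8 eRPKM, siCtrl OHT 46.3 and 47.2, siRAD21 34.1 and 32.4, and siRAD21 OHT 34.7 and 36.1. Levels at 48 h were 45.3, 49.6 and 47.8 in siCtrl, 46.9, 50.3 and 50 in siCtrl OHT, 29.8 and 32.7 in siRAD21 and 34.5 and 33.0 in siRAD21 OHT. Every siRAD21 library, with or without OHT, was below every siCtrl library. The fall was 1.51-fold without OHT at 48 h (-0.60, SE 0.051, adjusted p = 2.85e-07) and 1.45-fold with it (-0.53, SE 0.051, adjusted p = 1.67e-06). Under quantile normalization these were -0.49 and -0.47. Its log2 fold change with OHT was 0.04 in siCtrl and 0.11 in siRAD21 cells (adjusted p = 0.451 and 0.107). The other subunits of eIF2 differed from this: EIF2S1 (alpha) and EIF2S2 (beta) rose with OHT in siRAD21 cells at 48 h by 0.34 and 0.31, and EIF2S2 fell with siRAD21 by 0.19.

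Of the other factors of this kind, EIF5, which triggers GTP use by eIF2, EIF2A, EIF2D and EIF1AD rose by 0.29 to 0.38 with OHT in siRAD21 cells at 48 h. EIF1, which guards start codon choice, was 0.15 higher there (adjusted p = 0.0213, and 0.0756 with the siRAD21 OHT libraries averaged). Under quantile normalization EIF1 had a log2 fold change of -0.05 there (adjusted p = 0.391, limma). Its paralog EIF1B passed in no comparison of the main fit. With siRAD21 at 48 h it passed higher under the replicate block (0.25, adjusted p = 0.0399) and quantile normalization (0.29, adjusted p = 0.00759). EIF5B, which joins the ribosomal subunits, varied most within groups of all members, with an SD of 0.175 on the log2 scale. Its siCtrl OHT libraries at 24 h held 35.2 and 26.6 eRPKM. EIF5B passed in none of the 8 comparisons between groups. Under median centring it passed lower with siRAD21 at 24 h (-0.45, adjusted p = 0.0453, limma). With the replicate block it passed lower with siRAD21 at 24 h (-0.42, adjusted p = 0.00202) and under OHT at 24 and 48 h (-0.25 in each, adjusted p = 0.0379 and 0.0159), and higher with OHT in siRAD21 cells at 24 h (0.22, adjusted p = 0.0393). EIF5B shares 852 of its 7865 exon bases with REV1 on the opposite strand.

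eIF3 is the largest initiation factor and holds the small subunit. Of its 12 tested genes 11 passed higher with OHT in siRAD21 cells at 48 h and 5 in siCtrl cells (30.5% and 26.1% of all genes). The medians of the 12 were 0.24 and 0.12. With the siRAD21 OHT 48 h libraries averaged 6 of 12 passed higher in siRAD21 cells. Under quantile normalization 5 passed higher and 1 lower in both, with medians of 0.07 and 0.02. All 12 lay below 0 with siRAD21 at 48 h and 5 passed lower (30.5% of all genes), with a median of -0.13. Under quantile normalization, however, 5 lay above 0 and the median was -0.00. Only EIF3J was called in any comparison.

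EIF3J rose with OHT at both times and in both siRNA states. At 24 h siCtrl libraries held 44.1 and 40.5 eRPKM, siCtrl OHT 54.2 and 55.4, siRAD21 31.6 and 30.3, and siRAD21 OHT 44.2 and 47.7. The siCtrl libraries at 48 h held 35.8, 34.7 and 34.9, siCtrl OHT 56.2, 58.4 and 59.0, siRAD21 28.3 and 28.4, and siRAD21 OHT 51.4 and 49.5. No groups overlapped at either time. With OHT it was 1.64-fold higher in siCtrl cells at 48 h (0.71, SE 0.040, adjusted p = 6.87e-09), where the effect was 0.34 larger than at 24 h (adjusted p = 0.00925). It was 1.48-fold and 1.76-fold higher in siRAD21 cells at 24 and 48 h (0.56 and 0.82, adjusted p = 1.80e-06 and 1.05e-08), and the interaction at 48 h was 0.11 (SE 0.063, adjusted p = 0.265). siRAD21 lowered it at both times, with log2 fold changes of -0.44 and -0.30 without OHT and -0.25 and -0.20 with it, and all 4 passed. Its promoter, shown above, has no E-box of the sequence searched, and it shares 187 of 3127 exon bases with SPG11 on the opposite strand.

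EIF5A, which carries hypusine and helps elongation past difficult codons, held 51.3, 54.0 and 49.9 eRPKM in siCtrl and 54.4, 58.1 and 58.3 in siCtrl OHT libraries at 48 h (0.14, adjusted p = 0.0378). In siRAD21 cells it held 42.6 and 44.5 without and 55.3 and 52.9 with OHT, a 1.24-fold rise (0.31, adjusted p = 0.000727). At 24 h EIF5A stood at 51.9 and 45.8 eRPKM in siCtrl, 48.8 and 50.6 in siCtrl OHT, 47.7 and 43.8 in siRAD21 and 50.9 and 52.7 in siRAD21 OHT libraries. Its log2 fold changes with OHT there were 0.03 and 0.18 (adjusted p = 0.796 and 0.0416). The second missed the adjusted p in 14 alternatives, among them averaging the siRAD21 OHT 48 h libraries (0.0506), quantile normalization (0.0817) and the replicate block (0.0535). The rise of EIF5A in siCtrl cells at 48 h missed it in 7. EIF5AL1, which passed higher with OHT in siRAD21 cells at 48 h (0.41), shares its sequence with EIF5A, so reads may have been split between them. The paralog EIF5A2 did not follow EIF5A. After 24 h the libraries held 8.12 and 8.75 eRPKM in siCtrl, 9.26 and 8.51 in siCtrl OHT, 5.22 and 5.98 in siRAD21 and 5.00 and 4.95 in siRAD21 OHT. All siRAD21 libraries lay below all siCtrl libraries. It was 1.47-fold lower with siRAD21 (-0.55, SE 0.122, adjusted p = 0.00426) and 1.71-fold lower under OHT (-0.78, adjusted p = 0.000437). Without siRAD21 24 h replicate 1 the first of these was -0.46 and no longer past the test. At 48 h the fall was not past the test without OHT (-0.24, adjusted p = 0.0768) or with it (-0.27, adjusted p = 0.0669). Both were past it with the replicate block (-0.33 and -0.35, adjusted p = 0.0116 and 0.0106) and under quantile normalization (-0.33 and -0.30, adjusted p = 0.0178 and 0.0384). EIF6, which keeps the ribosomal subunits apart, rose with OHT at 48 h by 0.27 in siCtrl and 0.35 in siRAD21 cells.

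Whether OHT brought the levels in siRAD21 cells to those of siCtrl OHT cells was read from the direct comparison. At 24 h 6 members passed lower and 2 higher (9.44% and 10.6% of all genes, 20% in either direction), with EIF5A2 called lower (2.73% of all genes lower, 3.74% higher and 6.47% in either direction). At 48 h 7 passed lower and 4 higher (22.8% and 22.4% of all genes, 45.2% in either direction), with EIF2S3 and EIF4E2 called lower and EIF4E3, EIF4EBP2 and EIF4G3 higher (7.74% and 8.47% of all genes, 16.2% in either direction). The median was -0.03, against -0.14 without OHT. Of the 23 members lower with siRAD21 at 48 h without OHT, 7 were also lower with it, namely EIF2B3, EIF2B4, EIF2S3, EIF3J, EIF4E, EIF4E2 and EIF6, and these were all 7 that passed lower. With the siRAD21 OHT 48 h libraries averaged 6 passed lower, without EIF6 (-0.20, adjusted p = 0.0753), and 3 higher, without EIF1. Under quantile normalization 9 passed in each direction and the fold changes of EIF2S3 and EIF4E2 fell short of the limit, at -0.47 and -0.46. Passing in one and not in the other does not show a difference, which is tested by the interaction above.

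**Figure D5:**
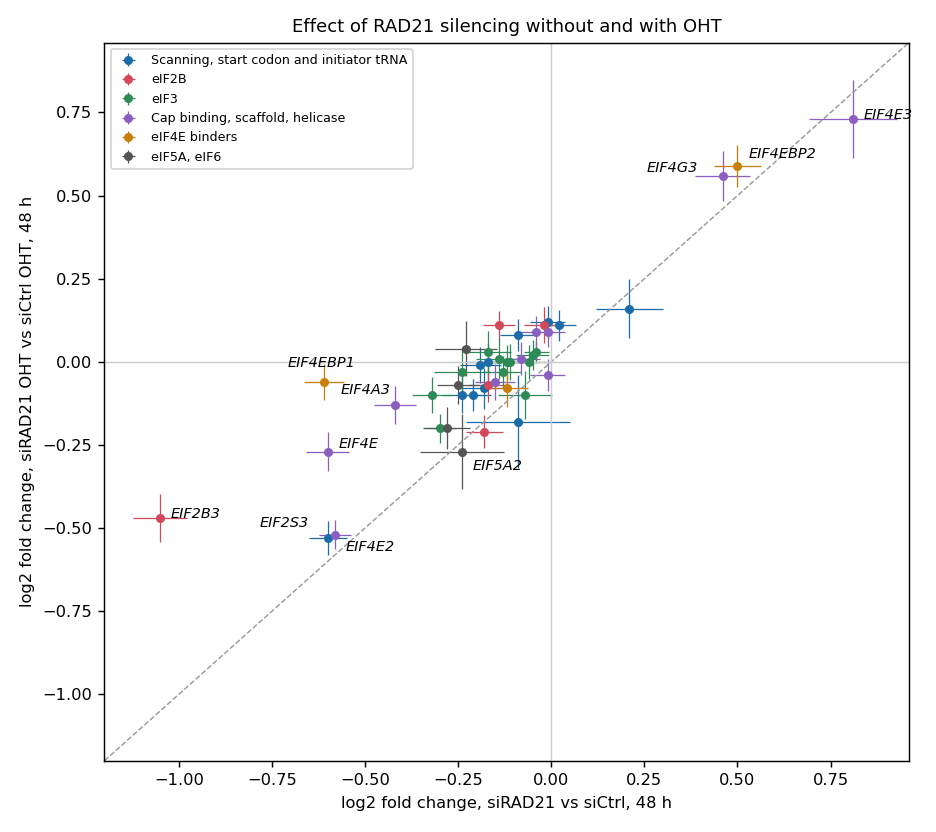
log2 fold change with siRAD21 at 48 h without OHT (x axis) and with OHT (y axis) for the 45 tested genes, with bars of 1 SE, colours for roles and a dashed line of equal change. EIF2S3 and EIF4E2 lie near the line at -0.60 and -0.53 and at -0.58 and -0.52, while EIF4EBP1 lies near 0 on the y axis and EIF2B3 at -1.05 and -0.47.

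Other genes of the pathway were counted from 2 lists. Of 33 regulators of initiation, 17 passed lower and 4 higher with siRAD21 at 48 h (30.5% and 27.2% of all genes), and 13 passed higher and 1 lower with OHT in siRAD21 cells at 48 h (30.5% and 29.9% of all genes). Of 11 elongation and release factors 3 passed lower with siRAD21 and 7 passed higher and 1 lower with OHT in siRAD21 cells at 48 h, the first close to the share of all genes. DENR, which helps reinitiation, and RPS6KB1, the S6 kinase downstream of mTOR, were lower with siRAD21 at 48 h without OHT (-0.82 and -0.70) and with it (-0.83 and -0.56). MKNK2, a kinase of eIF4E, was also lower (-0.77 and -0.64). PDCD4, which blocks eIF4A, was higher with siRAD21 (1.11 without and 1.30 with OHT) and lower with OHT in siCtrl (-0.73) and siRAD21 cells (-0.54). PPP1R15A, which directs a phosphatase to eIF2, was 0.87 and 0.59 higher with siRAD21 at 48 h without and with OHT.

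BZW2, an eIF5 mimic, and DOHH, which completes the hypusine of eIF5A, were lower with siRAD21 at 48 h (-0.59 and -0.53) and higher with OHT in siRAD21 cells (0.99 and 0.78). PPP1CB, a catalytic subunit of phosphatase 1, was lower with siRAD21 (-0.57), and MKNK1, the other eIF4E kinase, was 0.52 higher with siRAD21 under OHT at 48 h. RPTOR, a subunit of mTOR complex 1, was 0.60 higher with OHT in siCtrl cells at 48 h. EEF2K, the kinase that inactivates elongation factor 2, was 0.78 and 1.24 higher with OHT in siCtrl and siRAD21 cells at 48 h. EEF1E1, a scaffold of tRNA synthetases, was 0.61 and 0.77 higher there. The release factor ETF1 was 0.60 higher with OHT in siRAD21 cells. All these changes were called, as log2 fold changes from the fit of all genes. With siRAD21 at 48 h, 2 of the 33 regulators were called higher and 6 lower (12.6% and 11.2% of all genes). These 8 were close to the share of all genes called in either direction, 23.7%. Under OHT at 48 h siRAD21 gave 3 calls each way (8.47% and 7.74%). OHT at 48 h gave 2 higher and 1 lower in siCtrl (7.78% and 10.1%) and in siRAD21 cells (12.4% and 16.2%). Of the 11 elongation and release factors it gave 2 called higher in siCtrl and 3 in siRAD21 cells.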

How the data were processed

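RNA-seq was analysed in 18 libraries of U2OS-MycER cells, all assigned to a group by their labels. The RNA was freed of ribosomal RNA and made into unstranded libraries (TruSeq v2). The authors aligned reads to hg19 with TopHat2 (2.0.8), removed PCR duplicates, counted reads on exons with featureCounts (1.4.5) and deposited RPKM values (eRPKM) of 23399 genes, which are the values used here. Whole reads and depths were recovered from the steps of these values (22039 genes, to within 0.02 of a read).

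All libraries entered 1 linear model of log2(eRPKM + 0.5) in limma (3.58.1, R 4.3.3), which estimated the 8 group means with a variance trend and no block. The 14993 genes with a mean of at least 1 eRPKM were tested and p-values adjusted by Benjamini-Hochberg. The thresholds were an adjusted p of 0.05 and a log2 fold change of 0.5. Fold changes are on the log2(eRPKM + 0.5) scale, which understates those of low genes. Promoters came from RefSeq (GRCh38.p14) and exon overlaps from GENCODE (GRCh37). Full values are given for the members called, up to 8 in a comparison, and for EIF4E, EIF4G1, EIF4EBP1 and EIF5A with OHT, and other genes of the pathway are named where called. The members, lists and tests were chosen with earlier results of these data known. Same-numbered siCtrl and siCtrl OHT libraries at 48 h deviated weakly together (correlations 0.258, 0.130 and 0.157). So did siRAD21 libraries at 48 h with those of siCtrl (0.099 and 0.146) and of siCtrl OHT (0.168 and 0.111). Correlations with siRAD21 OHT at 48 h lay between -0.026 and 0.032, and those at 24 h between -0.169 and 0.071. These values do not settle whether replicate numbers pair the libraries, and the main fit took no account of pairing. The fit was tested on simulated reads. Alternatives were other pseudocounts and filters, median centring, quantile normalization, a fit of only the groups compared, robust empirical Bayes, a constant prior variance, a replicate block, averaging the siRAD21 OHT 48 h libraries, voom on recovered reads and leaving out each library. Undoing the removal of duplicates and a block with the numbers of siCtrl 24 h crossed were chosen after seeing the data.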

Additional observations from a re-analysis of the deposited data

Results flagged for a closer look

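The effect of OHT at 48 h differed between siRAD21 and siCtrl cells, by the interaction term of the fit of all genes (limma), for EIF2B1 (0.25 on the log2 scale), EIF2B3 (0.58), EIF4A3 (0.29), EIF4E (0.33) and EIF4EBP1 (0.55). Each rose more in siRAD21 cells, and all 5 were lower in siRAD21 than in siCtrl cells without OHT. For EIF2B1 that fall had an adjusted p of 0.0142 (limma), but of 0.176 under quantile normalization (-0.06). The falls and the interaction share the siRAD21 and siCtrl libraries without OHT, so they are not separate results. With the siRAD21 OHT 48 h libraries averaged, the adjusted p of the interaction (limma) was 0.00990 for EIF2B3 and 0.00228 for EIF4EBP1. It was 0.0501 to 0.0808 for the other 3. The effect of siRAD21 at 48 h differed from that at 24 h for EIF2B3 (-0.65), EIF4A3 (-0.32) and EIF4EBP1 (-0.53), each lower at 48 h. The effect of OHT in siCtrl cells differed between 48 and 24 h for EIF3J, which rose more at 48 h (0.34), and for EIF4EBP2, which fell more (-0.40).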

How the results depend on the processing

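Of 49 results for named members, 31 kept their direction and stayed called or not called under all 32 alternatives. Of the 1562 values for them, 1524 did, 34 lost the call and 4 changed sign. The 49 include results of EIF4E, EIF4G1, EIF4EBP1 and EIF5A with OHT that were not called and so had no call to lose. All 34 losses were thus among the called results, whose stability the pooled counts overstate. By the adjusted p alone, 39 of the 49 stayed on 1 side, and 49 values of the other 10, mostly of EIF5A, EIF4G1, EIF4E and EIF4EBP1 with OHT, lay on the other. The changes of sign were in differences that had not passed: EIF4G1 with OHT in siCtrl cells at 24 h was -0.00 without siCtrl 24 h replicate 2 and EIF5A there was -0.06 without it and -0.02 under quantile normalization, and EIF4G1 with OHT in siRAD21 cells at 48 h was -0.08 under quantile normalization. The cause was not tested.

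Quantile normalization gave 1 call with OHT in siRAD21 cells at 24 h, 3 calls and 18 members past the adjusted p with siRAD21 under OHT at 48 h, 1 call in the interaction at 48 h, and 1 call and 7 past the adjusted p in the effect of siRAD21 at 48 h minus 24 h. A pseudocount of 1 gave 1 call with siRAD21 at 24 h and 1 with OHT in siRAD21 cells at 24 h. A filter at 5 eRPKM, which left EIF4E3 out, also gave 1 in the latter. A pseudocount of 0.1 and voom each gave 1 call with OHT in siCtrl cells at 24 h and 2 with siRAD21 under OHT at 24 h, as undoing the removal of duplicates did for the latter. Fitting only the groups compared left 5 members past the adjusted p with OHT in siCtrl cells at 24 h and 0 for the effect of OHT at 48 h minus 24 h. Averaging the siRAD21 OHT 48 h libraries left 2 past the adjusted p in the interaction at 48 h.

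Leaving out 1 library at a time, members past the adjusted p numbered 9 to 17 at 24 h and 17 to 28 at 48 h with siRAD21, 4 to 13 and 24 to 27 with OHT in siCtrl cells, 11 to 28 and 27 to 38 with OHT in siRAD21 cells, and 6 to 8 and 9 to 12 with siRAD21 under OHT. They numbered 2 to 6 in the interaction at 48 h, 2 to 5 for the effect of siRAD21 at 48 h minus 24 h and 0 to 3 for that of OHT. Calls numbered 1 to 5 and 6 to 8 with siRAD21, 0 to 1 and 3 to 5 with OHT in siCtrl cells, 1 to 3 and 9 with OHT in siRAD21 cells, 1 to 2 and 4 to 6 with siRAD21 under OHT, 2 in the interaction at 48 h and 1 to 2 for siRAD21 at 48 h minus 24 h. With OHT in siCtrl cells at 24 h, EIF4G1 ranged from -0.00 to 0.11 and EIF5A from -0.06 to 0.12. Without siCtrl 24 h replicate 2 the median of the members there was 0.01, and without replicate 1 it was 0.13.

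The replicate block gave EIF4EBP2 a log2 fold change of 0.49 with siRAD21 at 48 h, short of the limit, and ended no other call of a named member. It moved other members across the adjusted p alone, EIF5B and EIF5A2 among them. With the numbers of siCtrl 24 h crossed, 14 members passed higher and 2 lower with OHT in siCtrl cells at 24 h. Groups of 2 libraries and the ceiling set by duplicate removal limit what small changes of abundant genes can show.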
